A study of Homo sapiens with 31 samples.

Results

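The cell cycle and DNA replication genes described here were 52 listed genes, of which 50 were measured, among 22395 genes with a value. A gene counted as measured when a probe set was annotated with that gene and no other, and where a gene had several such probe sets the brightest by its mean over all arrays would have been kept. Each of the 50 had 1. The 26 replication members were all measured, and of the 26 mitosis members 24 were. BUB1B and CENPA were left out because no probe set named them alone.

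The cells were Caco-2 (HTB-37), which derive from a human colorectal adenocarcinoma and, once confluent, take on a polarised form with features of enterocytes. They were used at passage 29 to 45 and kept for 21 days, either without flow on Transwell PET inserts or in a microfluidic chip. In the chip they attached for 24 h and then received culture medium at 100 µL/h, with a shear stress near 0.002 dyne/cm2. The 4 Transwell groups were TiO2-control medium (n = 4), TiO2 nanomaterial at 50 µg/mL (n = 3), ZnO-control medium (n = 4) and ZnO nanomaterial at 10 µg/mL (n = 4). The 4 chip groups, with n = 4 each, were TiO2-control medium, TiO2 at 100 µg/mL, ZnO-control medium and ZnO at 80 µg/mL. Each control medium was the dispersion solution of its nanomaterial without the metal. Exposure lasted 6 h, with the flow in the chip stopped once its upper chamber was full, and the doses were set by modelling so that equal amounts would settle on the cells. All groups used this single tumour-derived line, and each array measured RNA of a bulk culture. The labels do not say whether replicates were separate cultures or passages, so p-values measure the spread between these arrays, which may be partly technical. They also do not say whether the TiO2 set and the ZnO set were run together.

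Cells copy their DNA once per division. In G1 the MCM helicase is loaded on origins by CDC6 and CDT1, and in S phase it is switched on with CDC45 and the GINS complex, while ribonucleotide reductase and thymidylate synthase supply nucleotides. Genes of this step are classically driven by E2F factors when the retinoblastoma protein releases them. Genes of mitosis, such as CDK1, its B-type cyclins, Polo and Aurora kinases and the spindle motors, peak later, in G2 and M, under B-MYB, FOXM1 and the MuvB core. In quiescent cells the DREAM complex holds the latter genes down through the cell cycle homology region (CHR), a short promoter element. Caco-2 cells slow their division when they become confluent and differentiate, and in the intestine division is confined to the crypts.

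The promoters of both arms are shown because they differed in the letters of these elements, which the choice of members did not use. RefSeq windows of 250 bases before to 50 bases after the gene start (GRCh38.p14) were found for 23 of the 26 replication members (33 windows) and 18 of the 24 mitosis members (23 windows). A gene counted as holding a motif when any of its windows did. AURKA, BIRC5, CCNE2, CENPM, FOXM1, MCM4, MCM5, TPX2 and UBE2C had no entry. The CHR letters searched were TTTGAA and TTCGAA on both strands, the second of which is its own reverse complement. They were in 12 of 18 mitosis genes (66.7%), in 2 of 23 replication genes (8.7%) and, of the 15489 genes of the value table with a window, in 17.8%. Of all 35116 windows 16.4% held them. Beside each name is the stretch of 100 bases that ends at the base before the start, with the CHR match in capitals, for 4 mitosis members. These were picked from members with a match wholly inside that stretch, and do not show where matches usually lay. In BUB1 and TOP2A, for example, all matches lay outside it.
PLK1, chr16:23678789-23678888, plus strand: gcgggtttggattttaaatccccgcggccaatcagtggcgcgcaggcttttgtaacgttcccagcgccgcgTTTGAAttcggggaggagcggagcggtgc
CCNB2, chr15:59105046-59105145, plus strand: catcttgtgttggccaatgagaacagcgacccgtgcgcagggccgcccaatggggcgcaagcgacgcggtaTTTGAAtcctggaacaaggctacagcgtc
CDC20, chr1:43358881-43358980, plus strand: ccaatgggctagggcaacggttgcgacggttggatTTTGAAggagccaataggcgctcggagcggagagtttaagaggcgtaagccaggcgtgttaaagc
KIF23, chr15:69414249-69414348, plus strand: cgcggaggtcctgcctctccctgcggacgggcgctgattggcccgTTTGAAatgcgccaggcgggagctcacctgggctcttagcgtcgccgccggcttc
The E2F letters searched were TTTGGCGC, TTTCCCGC and TTTCGCGC on both strands, and the third can overlap its own reverse complement. They were in 17 of 23 replication genes (73.9%), in 2 of 18 mitosis genes (11.1%) and in 4.29% of the genes of the value table, and in 2.74% of all windows. The stretches of 4 replication members, picked in the same way, follow in the same form, with the E2F match in capitals, which reads on the opposite strand in GINS2, CDT1 and PCNA.
POLA2, chr11:65261862-65261961, plus strand: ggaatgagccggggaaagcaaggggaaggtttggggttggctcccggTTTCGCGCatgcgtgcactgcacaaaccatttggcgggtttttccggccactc
GINS2, chr16:85688955-85689054, minus strand: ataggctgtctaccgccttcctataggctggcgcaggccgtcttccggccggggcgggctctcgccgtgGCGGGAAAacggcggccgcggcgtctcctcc
CDT1, chr16:88803689-88803788, plus strand: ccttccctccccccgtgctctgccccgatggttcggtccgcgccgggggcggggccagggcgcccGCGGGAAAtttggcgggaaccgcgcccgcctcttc
PCNA, chr20:5126623-5126722, minus strand: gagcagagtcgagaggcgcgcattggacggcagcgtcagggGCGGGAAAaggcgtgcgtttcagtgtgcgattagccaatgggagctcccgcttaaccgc
The CCAAT box, a common promoter element, was in 88.9% of the mitosis genes, 73.9% of the replication genes and 41.5% of the genes of the value table, and in 34.6% of all windows. A match is a description of the letters and not a site of binding. The shares were higher also in genes of the same processes outside the 50, with CHR letters in 31 of 39 other mitosis genes (79.5%) and E2F letters in 12 of 34 other replication genes (35.3%).

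**Figure D1:**
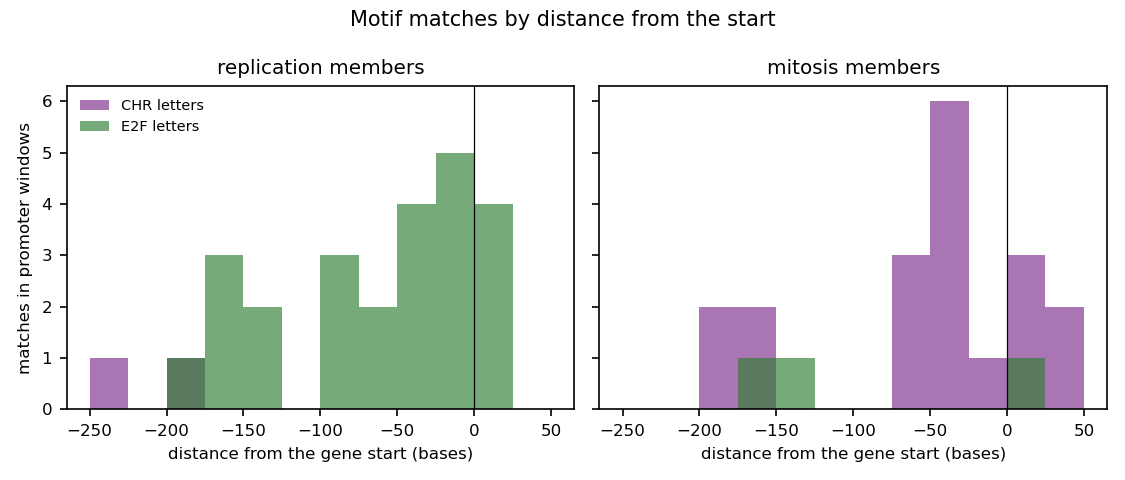
Number of motif matches (vertical axis) in the promoter windows by distance from the gene start in bases (horizontal axis), for the replication members (left, 33 windows of 23 genes) and the mitosis members (right, 23 windows of 18 genes). Purple bars are CHR letters and green bars E2F letters, darker where both fall, and overlapping matches that start at different bases are each counted. Most matches are E2F letters in the left panel and CHR letters in the right one.

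The arrays hold relative levels on a log2 scale, in which 1 unit is a doubling. Array medians over all probe sets lay between 3.243 and 3.333, and those over the genes between 4.235 and 4.397. The latter are meant by the array median below, and every member read above it on all 31 arrays. Over the genes brighter than the median gene the first principal component, which held 58.3% of the variance, set chip against Transwell. Of the epithelial markers 8 of 8 were above the array median on all arrays, and their summed level per array ran from 72.35 to 74.52 on Transwell and from 73.65 to 76.70 in the chip. The stromal markers COL1A2 and DCN, the immune markers PTPRC and CD3E and the endothelial VWF were below the array median on all 31 arrays. The stromal markers COL1A1 and LUM and the immune markers CD68 and CD14 were above it on all. PDGFRB was above it on 7 arrays and CDH5 on 3. The part of the higher epithelial sums in the chip results was not tested. Chip replicates spread more. The median within-group SD of replication members was 0.279 in the chip and 0.143 on Transwell, that of mitosis members 0.257 and 0.138, and that of the genes brighter than the median gene 0.236 and 0.145. A pair of chip arrays stood apart for these genes, replicate 2 of the TiO2-control group and replicate 1 of the ZnO group, and counts and medians of the 50 members that moved with them are also given without them. Another pair, replicate 4 of the chip TiO2-control group and replicate 4 of the chip TiO2 group, lay at 9.26 and 11.84 on the second principal component, where the other 6 arrays of these groups lay from -7.58 to -3.23, and is treated the same way. On this component the Transwell arrays of the TiO2 set lay from -23.27 to -15.84 and those of the ZnO set from 8.54 to 24.3. The chip arrays of the ZnO set lay from -3.81 to 7.55.

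To show each arm on each array, every member was set relative to its own mean over the 31 arrays and these deviations were averaged. Both arms differed among the groups, and not in the same way. On Transwell in TiO2-control medium the replication mean was 0.345 ± 0.107 (SD, n = 4) and the mitosis mean -0.021 ± 0.099. On Transwell in ZnO-control medium they were -0.057 ± 0.032 and -0.339 ± 0.083. Both arms thus read lower in the ZnO-control than in the TiO2-control inserts, with no overlap between these groups for either arm. In the chip the replication mean was -0.137 ± 0.282 in TiO2-control medium and 0.079 ± 0.118 in ZnO-control medium. The mitosis mean in the chip was 0.079 ± 0.397 in TiO2-control medium and 0.326 ± 0.084 in ZnO-control medium. Chip groups in the 2 control media overlapped in both arms. Array 2 of the chip TiO2-control group read -0.494 for replication and -0.495 for mitosis, while its other 3 arrays read from -0.182 to 0.182 and from 0.132 to 0.393. In bulk RNA a smaller share of dividing cells and less of these transcripts per cell cannot be told apart.

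The mitosis mean minus the replication mean, whose 0 is only the average over all arrays of this series, separated the culture systems. On all 15 Transwell arrays it was below 0, from -0.406 to -0.218 with a median of -0.336. On the 16 chip arrays it ran from -0.001 to 0.859 with a median of 0.286, and the array below 0 was replicate 2 of the TiO2-control group. No chip array overlapped with a Transwell array. By group it was -0.366 ± 0.049, -0.348 ± 0.017, -0.282 ± 0.054 and -0.268 ± 0.062 on Transwell in TiO2-control, TiO2, ZnO-control and ZnO. In the chip it was 0.216 ± 0.154, 0.270 ± 0.045, 0.248 ± 0.064 and 0.444 ± 0.286 in the same order. The largest value, 0.859, was that of chip ZnO replicate 1, where the replication mean was -0.531 against -0.099 to 0.000 on the other 3 arrays of its group. This balance is given as a description.

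**Figure D2:**
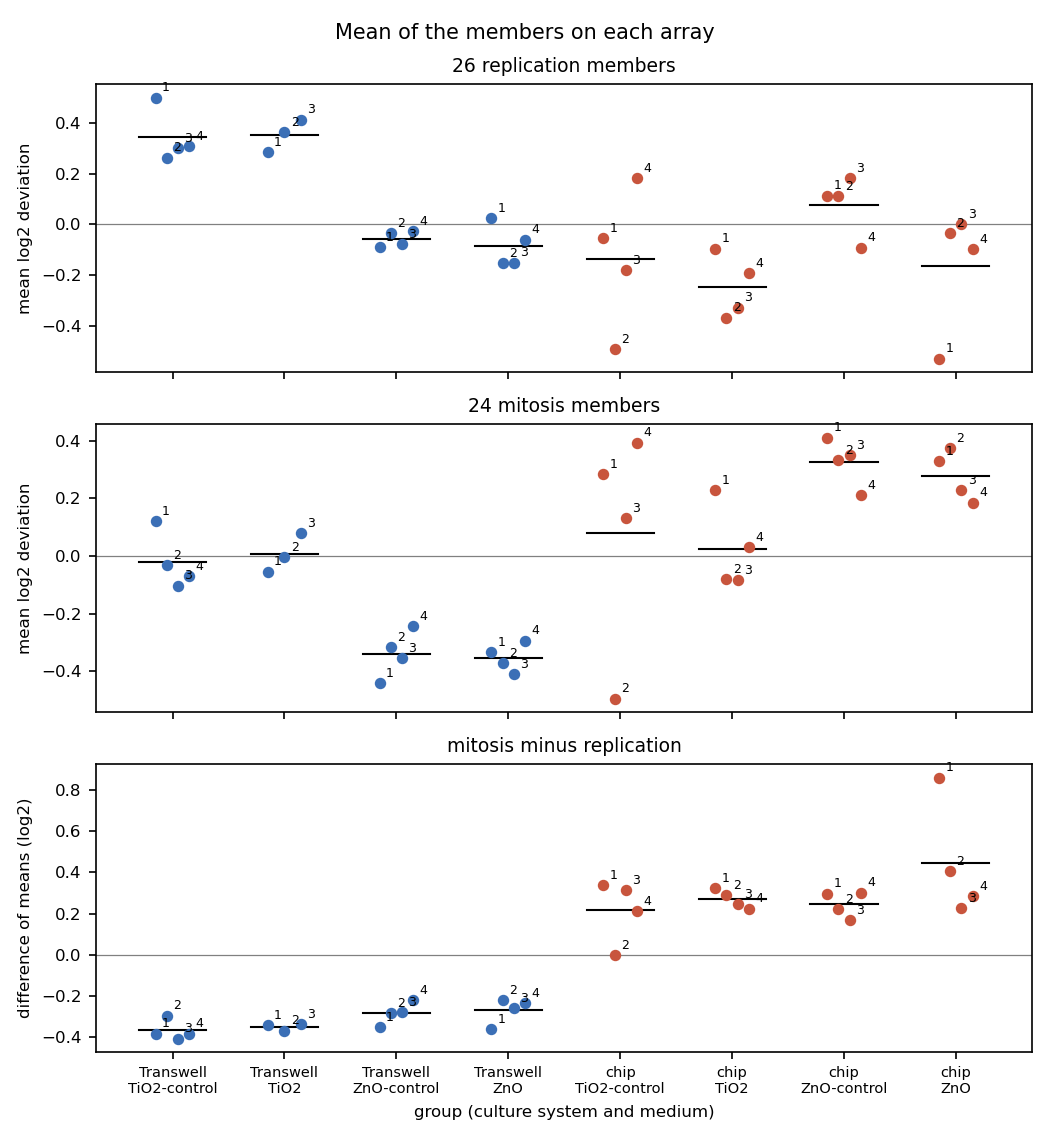
Mean log2 deviation of the 26 replication members (top) and the 24 mitosis members (middle) and their difference (bottom) on each array, by group. Points are arrays with their replicate numbers, blue for Transwell and red for the chip, and lines are group means. All 15 Transwell arrays lie below 0 in the bottom panel and 15 of the 16 chip arrays above it.

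By gene, 13 replication members had their highest group mean on Transwell with TiO2 and 8 on Transwell in TiO2-control medium, and 12 had their lowest in the chip with TiO2. Of the mitosis members 13 were highest in the chip in ZnO-control medium and 9 in the chip with ZnO, while 11 were lowest on Transwell with ZnO and 9 on Transwell in ZnO-control medium. The group means of a member spanned from 0.298 (CCNB1) to 1.29 (BUB1) log2 units in the mitosis arm and from 0.398 to 1.27 (GINS2) in the replication arm.

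**Figure D3:**
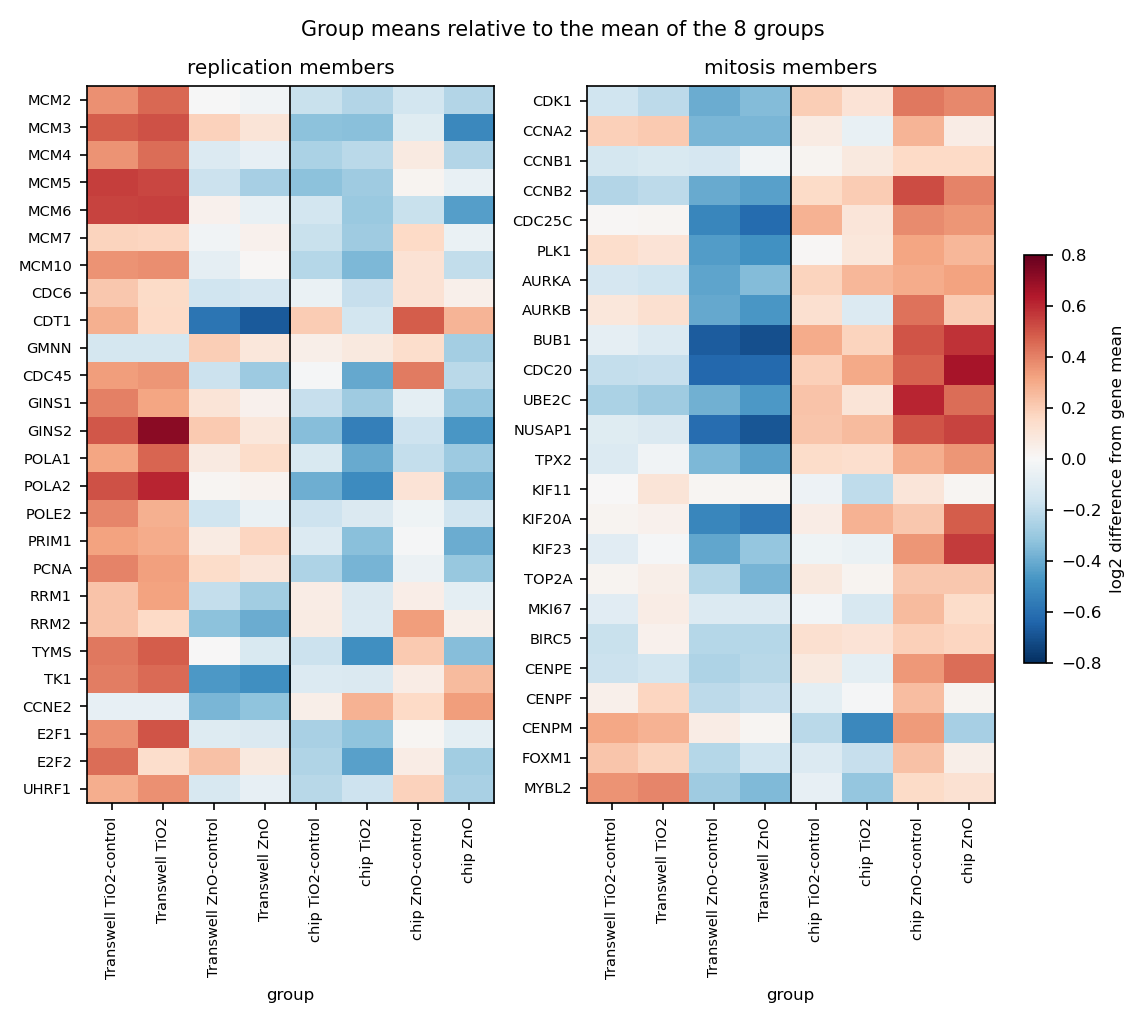
Mean log2 level of each member in the 8 groups (columns) relative to the mean of the 8 group means, replication members on the left and mitosis members on the right. Red is higher and blue lower on one scale in log2 units, and the line divides Transwell from chip. Most replication members are reddest on Transwell with TiO2 or its control medium, and most mitosis members bluest on Transwell with ZnO or its control medium.

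The first comparison asked how the genes differed between chip and Transwell in TiO2-control medium. A gene is said to have passed when its p-value from limma, adjusted by Benjamini-Hochberg over all 22395 genes, was below 0.05. In the chip 18 of 26 replication members were lower and 0 higher, against 22.9% of all genes that passed in either direction, 13.5% that were lower and 9.42% that were higher. Their median difference was -0.55, with 24 of 26 below 0, beside a median of -0.01 over all genes. Of 24 mitosis members 2 were higher and 2 lower, a share near that of all genes, with a median of 0.11 and 17 above 0. All 13 replication members whose groups did not overlap were lower in the chip, where 13.4% of all genes were. Errors of differences are standard errors from the fit.

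Of the licensing and helicase genes 9 of 13 were lower and 0 higher. MCM2 to MCM7, the 6 subunits of the replicative helicase, all fell, by 0.54, 0.81, 0.61, 0.88, 0.69 and 0.36 log2 units in the order of their numbers. MCM5 had a difference of -0.88 ± 0.16 (adjusted p = 0.000146), MCM6 of -0.69 ± 0.14 (adjusted p = 0.000419) and MCM3 of -0.81 ± 0.17 (adjusted p = 0.000715). GINS1 and GINS2, subunits of the complex that activates the helicase, fell by 0.59 and 0.83, and MCM10, which helps that activation, by 0.59. The licensing factors did not pass, with CDC6 at -0.27 and CDT1 at -0.09, nor did CDC45 (-0.34) and the CDT1 inhibitor GMNN (0.19). All 5 members of the polymerase group fell and had groups that did not overlap. They were POLA1 (-0.44), POLA2 (-0.90 ± 0.10, adjusted p = 2.08e-07) and PRIM1 (-0.43) of the polymerase alpha-primase complex, POLE2 of the leading-strand polymerase (-0.56) and the sliding clamp PCNA (-0.65). In nucleotide supply TYMS (-0.59) and TK1 (-0.52), which make thymidylate, fell, whereas RRM1 (-0.17) and RRM2 (-0.16), the ribonucleotide reductase subunits, did not pass. The E2F1 and E2F2 transcription factors fell by 0.62 and 0.69. CCNE2, which starts S phase, was at 0.11 and UHRF1, which keeps DNA methylation through replication, at -0.52, and neither passed.

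In the mitosis arm UBE2C, the ubiquitin-conjugating enzyme of the anaphase-promoting complex, was higher in the chip by 0.48 ± 0.14 (adjusted p = 0.0133) and CCNB2, cyclin B2, by 0.39 ± 0.13 (adjusted p = 0.0340). CENPM, a centromere protein, was lower, at -0.53 ± 0.13 (adjusted p = 0.00333), as was MYBL2, the B-MYB factor, at -0.43 ± 0.13 (adjusted p = 0.0179). The other 20 did not pass, among them CDC20 at 0.38 (adjusted p = 0.0833), BUB1 at 0.37, CDK1 at 0.35, FOXM1 at -0.33 and PLK1 at -0.13. The spindle group, with 0 of 8 passed and 1 at an unadjusted p below 0.05, where 32.4% of all genes were, ran from -0.05 (KIF11) to 0.32 (NUSAP1).

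The counts moved most with 1 array. Without replicate 2 of the chip TiO2-control group 9 replication members were lower and 0 higher, with a median of -0.40 and 23 of 26 below 0. Of the mitosis members 11 were then higher and 1 lower, with a median of 0.38, where 20.5% of all genes passed. The 9 replication members were MCM3, MCM4, MCM5, MCM6, GINS2, POLA1, POLA2, TYMS and E2F2, and POLA2 stood at -0.93. The 11 mitosis members were CDK1 (0.57), UBE2C (0.56), CCNB2 (0.54), CDC20 (0.53), BUB1 (0.52), CENPE (0.52), BIRC5 (0.50), NUSAP1 (0.50), AURKA (0.48), TPX2 (0.44) and CDC25C (0.43). CENPM remained lower at -0.48, and MYBL2 at -0.36 no longer passed. Without replicate 1 of that group 0 mitosis members were higher and 2 lower, and without replicate 3 there was 1 higher and 1 lower. In these fits 4584 and 4694 of all genes passed. The balance of directions among the mitosis calls thus turned with the array left out. Without replicate 4 of the chip TiO2-control and the chip TiO2 groups 19 replication members were lower, and 1 mitosis member was higher and 3 were lower. Of all genes 23.6% passed then. With the spread taken from the 2 groups alone 10 replication and 2 mitosis members passed. The share of all genes in that fit is not given here.

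In ZnO-control medium the counts with all arrays were others. Of 24 mitosis members 19 were higher in the chip and 0 lower, against 27.2% of all genes that passed, 12.3% that were higher and 14.9% that were lower. All 24 were above 0, with a median of 0.68 beside -0.01 over all genes, and in 22 the chip arrays were all above the Transwell arrays, where 12.6% of all genes were. Of the replication members 5 of 26 were higher and 0 lower, with a median of 0.16 and 16 above 0. With each array left out in turn 16 to 20 mitosis members and 4 to 6 replication members passed. The contrast with TiO2-control medium was smaller for the mitosis arm without replicate 2 of the chip TiO2-control group. In TiO2-control medium 21 of 24 mitosis members were then above 0, with a median of 0.38.

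The spindle checkpoint and anaphase genes had the largest median of the mitosis groups, 1.10, with 3 of 3 higher. BUB1, a checkpoint kinase, had a difference of 1.17 ± 0.15 (adjusted p = 8.67e-07), CDC20, which activates the anaphase-promoting complex, of 1.10 ± 0.16 (adjusted p = 2.79e-06) and UBE2C of 0.99 ± 0.14 (adjusted p = 3.55e-06). Of the cyclins and kinases 7 of 8 were higher, namely CCNB2 (0.92), CDC25C (0.90), AURKB (0.84), CDK1 (0.82), PLK1 (0.76), AURKA (0.72) and CCNA2 (0.64), while CCNB1 at 0.29 did not pass. In the spindle and chromosome group 6 of 8 were higher, led by NUSAP1, a spindle protein, at 1.11 ± 0.13 (adjusted p = 2.21e-07). KIF23 (0.77) and KIF20A (0.73), motors of the midzone, TPX2 (0.65), TOP2A (0.44) and BIRC5 (0.42) were higher too. KIF11, the motor that separates the spindle poles, was at 0.08 and the proliferation marker MKI67 at 0.36, and neither passed. Of the centromere genes CENPE was higher (0.59), and CENPF (0.46) and CENPM (0.28) did not pass. The transcription factors FOXM1 (0.46) and MYBL2 (0.44) were both higher. BIRC5 was near the threshold (adjusted p = 0.0484) and lost its call in 24 of 41 other settings.

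The 5 replication members that were higher were CDT1 at 1.07 ± 0.16 (adjusted p = 4.97e-06), RRM2 at 0.66 ± 0.10 (adjusted p = 9.27e-06), CDC45 at 0.59 ± 0.17 (adjusted p = 0.00778), CCNE2 at 0.52 ± 0.16 (adjusted p = 0.0108) and TK1 at 0.52 ± 0.17 (adjusted p = 0.0252). The MCM helicase subunits did not pass, with MCM3 at -0.28, MCM6 at -0.22, MCM2 at -0.14, and MCM4, MCM5 and MCM7 each at 0.19. None of the 5 polymerase genes passed, with values from -0.27 (POLA1) to 0.13 (POLE2). At an unadjusted p below 0.05 there was 1 polymerase gene, where 35.1% of all genes were.

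**Figure D4:**
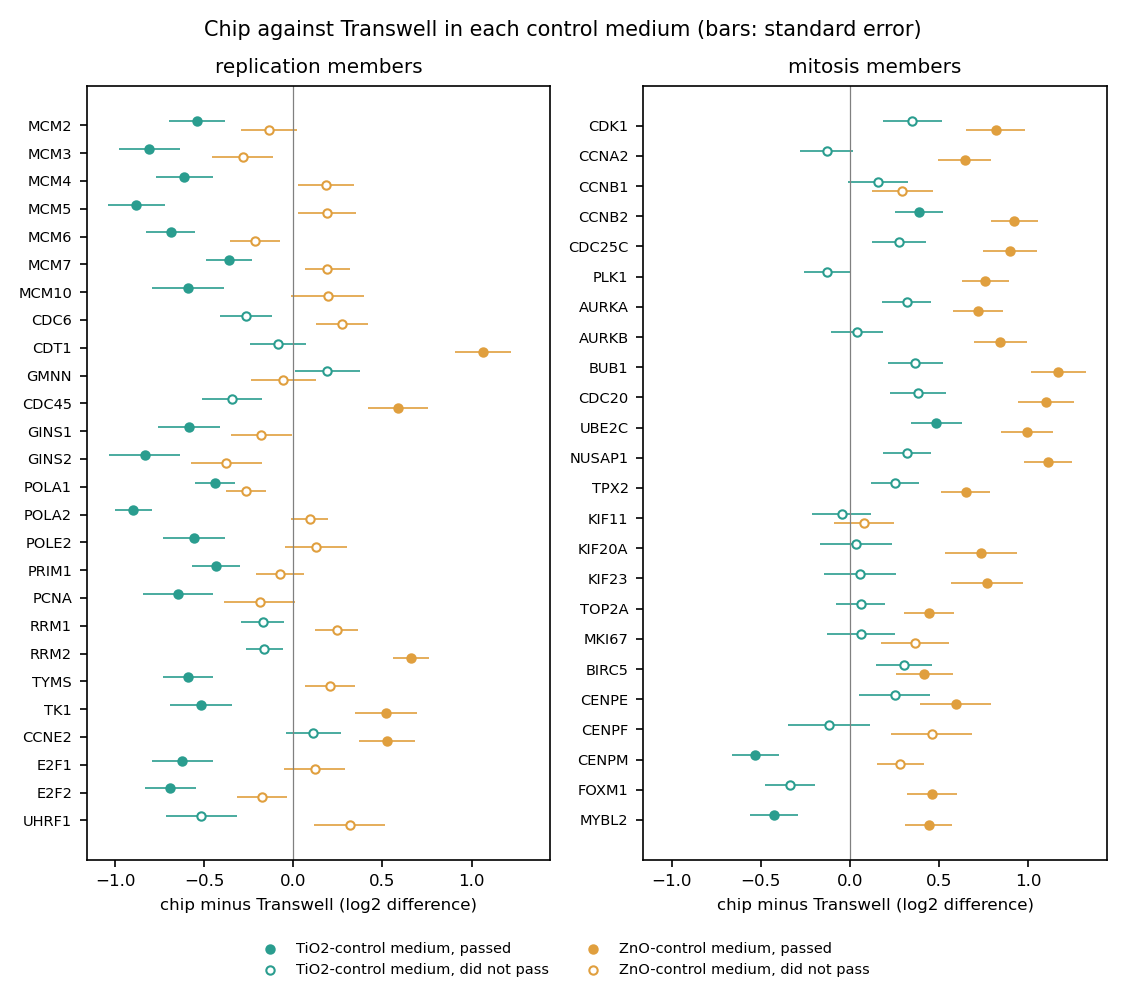
Chip minus Transwell difference in log2 units (horizontal axis) of each replication member (left) and mitosis member (right) in TiO2-control medium (teal) and ZnO-control medium (orange). Bars are standard errors, and filled points passed. The orange points lie to the right of the teal ones in all 24 mitosis members and in 25 of the 26 replication members, and this is tested gene by gene as the difference between media.

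Set side by side, 17 replication members were lower in the chip in TiO2-control medium and did not pass in ZnO-control medium. TK1 was lower in the first and higher in the second. In the mitosis arm 16 did not pass in the first and were higher in the second, UBE2C and CCNB2 were higher in both, MYBL2 was lower and then higher, and CENPM was lower and then did not pass. These counts use all arrays. Without replicate 2 of the chip TiO2-control group TK1 (-0.39) and MYBL2 (-0.36) no longer passed in TiO2-control medium. There 9 replication members were then lower, and 11 mitosis members were higher and 1 lower. Such a count does not test whether the media differed, so the chip minus Transwell difference in ZnO-control minus that in TiO2-control was fitted for every gene. Of all genes 2.74% passed, 1.69% with the higher and 1.05% with the lower value in ZnO-control medium. Of 26 replication members 8 passed and of 24 mitosis members 8 did, every one with the higher signed value in ZnO-control medium. Where a member was lower in the chip in TiO2-control medium, a higher value can mean a smaller gap between the systems. The medians were 0.55 and 0.60, beside 0.01 over all genes, with 25 of 26 and 24 of 24 above 0.

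The replication members were CDT1 (1.15 ± 0.22, adjusted p = 0.00457), MCM5 (1.07 ± 0.23, adjusted p = 0.00957), TK1 (1.04 ± 0.25, adjusted p = 0.0206), POLA2 (0.99 ± 0.15, adjusted p = 0.000340), CDC45 (0.93), RRM2 (0.82 ± 0.14, adjusted p = 0.00205), TYMS (0.80) and MCM4 (0.80). The mitosis members were PLK1 (0.89 ± 0.19, adjusted p = 0.00843), MYBL2 (0.87 ± 0.19, adjusted p = 0.0102), CENPM (0.81 ± 0.19, adjusted p = 0.0167), BUB1 (0.80), AURKB (0.80), NUSAP1 (0.79 ± 0.19, adjusted p = 0.0219), FOXM1 (0.79 ± 0.20, adjusted p = 0.0270) and CCNA2 (0.77). CDT1, MCM5, TK1, POLA2, RRM2, PLK1 and MYBL2 passed in each of 41 other settings. MCM4, at an adjusted p of 0.0490, lost its call in 28 of them, CCNA2 in 20 and BUB1 in 17. Without replicate 2 of the chip TiO2-control group 6 replication members and 4 mitosis members passed, with medians of 0.48 and 0.40. Of all genes 2.32% passed then. Without replicate 4 of the chip TiO2-control and the chip TiO2 groups 12 and 9 passed, where 3.99% of all genes did. The mitosis count was also 4 without Transwell ZnO-control replicate 1, chip ZnO-control replicate 1 or Transwell TiO2-control replicate 1, and 5 without Transwell TiO2-control replicate 2 or 3, Transwell ZnO-control replicate 2 or chip ZnO-control replicate 3. The replication count was 5 without Transwell ZnO-control replicate 1. In these fits 309 to 525 of all genes passed.

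Levels on single arrays show where these differences lay for the 4 members of each arm with the smallest p. POLA2, a subunit of the polymerase alpha-primase complex, read 6.63, 6.78, 6.69 and 6.44 on Transwell in TiO2-control medium and 5.67, 5.83, 5.47 and 5.97 in the chip. In ZnO-control medium it read 6.11, 6.13, 6.16 and 6.17 on Transwell and 6.24, 6.15, 6.38 and 6.17 in the chip. The TiO2-control groups were fully apart, the ZnO-control groups overlapped, and both of the latter lay between the former. MCM5 read 7.64, 7.42, 7.68 and 7.82 on Transwell in TiO2-control medium and 6.89, 6.16, 6.92 and 7.07 in the chip. In ZnO-control medium MCM5 read 6.84, 6.92, 6.90 and 6.995 on Transwell and 6.92, 7.22, 7.23 and 7.05 in the chip. Of the 4 groups the Transwell TiO2-control arrays alone lay above the rest.

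RRM2, the subunit of ribonucleotide reductase whose level follows S phase, read 8.59, 8.43, 8.51 and 8.41 on Transwell in TiO2-control medium and 8.42, 8.15, 8.32 and 8.41 in the chip. In ZnO-control medium it read 7.82, 8.04, 7.91 and 7.96 on Transwell and 8.53, 8.73, 8.78 and 8.32 in the chip. The Transwell ZnO-control arrays were below all others of these groups. CDT1, which loads the helicase in G1, read 8.33, 8.10, 8.34 and 8.36 on Transwell in TiO2-control medium and 8.45, 7.81, 8.10 and 8.44 in the chip. In ZnO-control medium CDT1 read 7.36, 7.33, 7.40 and 7.56 on Transwell and 8.49, 8.64, 8.52 and 8.26 in the chip. Again the Transwell ZnO-control arrays were the lowest, with no overlap.

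PLK1, the Polo-like kinase of mitotic entry, read 10.32, 10.04, 10.02 and 9.95 on Transwell in TiO2-control medium and 10.13, 9.52, 10.01 and 10.17 in the chip. In ZnO-control medium it read 9.35, 9.45, 9.54 and 9.68 on Transwell and 10.29, 10.12, 10.44 and 10.21 in the chip. Chip replicate 2 of the TiO2-control group lay within the Transwell ZnO-control range. MYBL2 read 9.42, 9.28, 9.39 and 9.28 on Transwell in TiO2-control medium and 8.95, 8.71, 8.70 and 9.32 in the chip. In ZnO-control medium MYBL2 read 8.58, 8.70, 8.75 and 8.78 on Transwell and 9.0, 9.49, 9.16 and 8.91 in the chip. Chip replicate 4 of the TiO2-control group lay among the Transwell arrays of that medium, and the other 3 lay below.

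CENPM read 6.19, 6.26, 6.02 and 6.25 on Transwell in TiO2-control medium and 5.26, 5.50, 5.92 and 5.92 in the chip. In ZnO-control medium it read 6.00, 5.70, 6.05 and 5.94 on Transwell and 6.32, 6.36, 6.15 and 5.99 in the chip. The chip groups of the 2 media did not overlap for CENPM. NUSAP1 read 8.71, 8.48, 8.59 and 8.47 on Transwell in TiO2-control medium and 9.24, 8.34, 8.86 and 9.09 in the chip. In ZnO-control medium NUSAP1 read 8.04, 7.98, 8.02 and 8.18 on Transwell and 9.33, 9.06, 9.13 and 9.14 in the chip. Apart from chip replicate 2 of the TiO2-control group, every chip array of these groups was above every Transwell array.

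**Figure D5:**
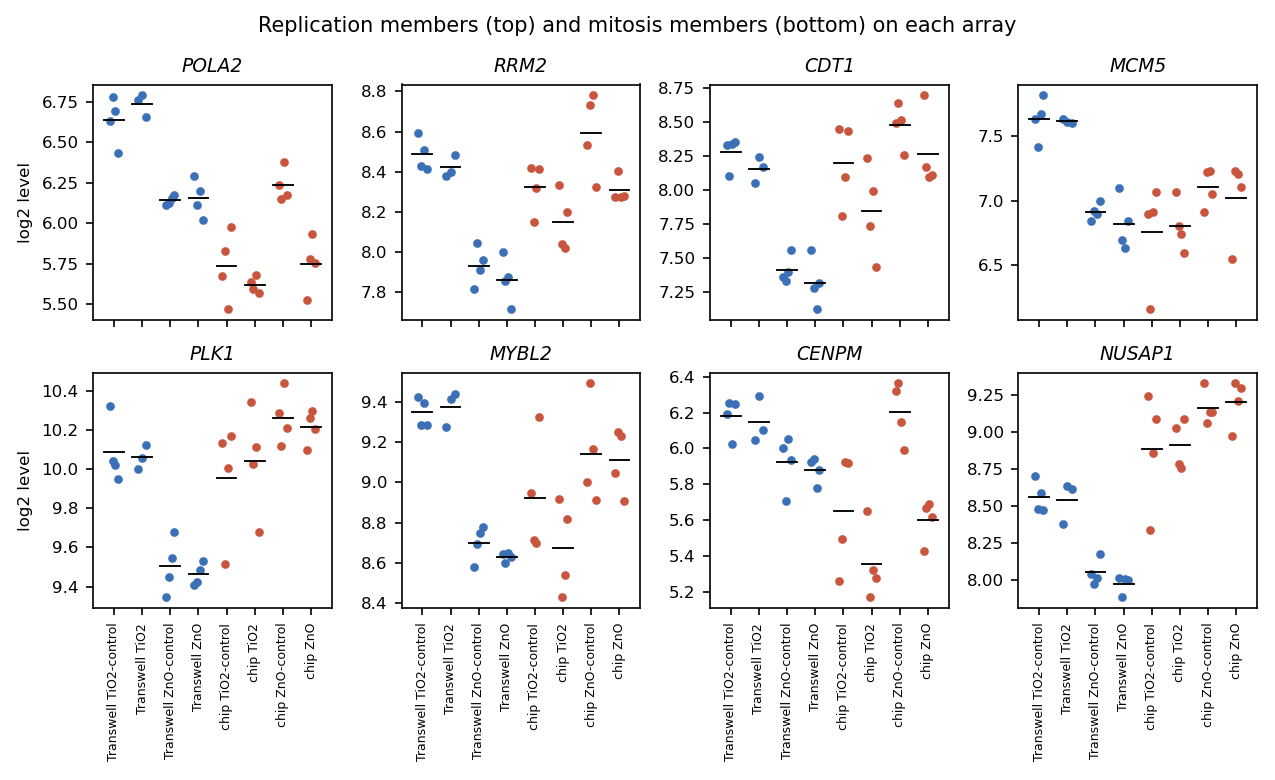
Log2 level of 4 replication members (top) and 4 mitosis members (bottom) on each array, by group. Points are arrays, blue for Transwell and red for the chip, lines are group means, and the vertical axes differ between panels. The group means of RRM2, CDT1, PLK1 and NUSAP1 are lowest on Transwell with ZnO and its control medium.

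The control media were then compared within each system, which shares its arrays with the differences above. On Transwell both arms were lower in ZnO-control than in TiO2-control medium. Of 26 replication members 7 were lower and 0 higher, with a median of -0.42 and 25 below 0, and of 24 mitosis members 8 were lower and 0 higher, with a median of -0.27 and 22 below 0. Of all genes 6.64% passed, with 3.76% lower and 2.88% higher. The replication members were TK1 (-0.87 ± 0.17, adjusted p = 0.00228), CDT1 (-0.87 ± 0.16, adjusted p = 0.000982), MCM5 (-0.72 ± 0.16, adjusted p = 0.00578), RRM2 (-0.55 ± 0.10, adjusted p = 0.00117), MCM6 (-0.50), POLA2 (-0.49 ± 0.10, adjusted p = 0.00385) and RRM1 (-0.42). The mitosis members were MYBL2 (-0.65 ± 0.13, adjusted p = 0.00282), BUB1 (-0.60 ± 0.15, adjusted p = 0.0170), PLK1 (-0.58 ± 0.13, adjusted p = 0.00640), CCNA2 (-0.56 ± 0.15, adjusted p = 0.0207), CDC25C (-0.53), NUSAP1 (-0.51 ± 0.13, adjusted p = 0.0197), AURKB (-0.50) and FOXM1 (-0.45). Replication arrays did not overlap between the media in 20 members, all lower in ZnO-control, where 9.35% of all genes were. The control media belonged to sets that may have been cultured or hybridised at different times, and medium and set cannot be told apart. With arrays left out in turn the mitosis count was 2 without Transwell ZnO-control replicate 1 or Transwell TiO2-control replicate 1, 4 without Transwell TiO2-control replicate 3 or Transwell ZnO-control replicate 2, and 5 without Transwell TiO2-control replicate 2 or Transwell ZnO-control replicate 3. In these fits 845 to 1275 of all genes passed. The replication count ran from 5 to 10.

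In the chip no member passed between the control media, and the medians moved with single arrays of the TiO2-control group. By limma 0 of 26 replication and 0 of 24 mitosis members passed, where 0.058% of all genes did. At an unadjusted p below 0.05 there were 8 and 7, where 9.69% of all genes were. The medians were 0.22 and 0.25, with 23 of 26 and 24 of 24 above 0 in ZnO-control medium. Without replicate 2 of the chip TiO2-control group the medians were 0.06 and 0.01, with 19 of 26 and 14 of 24 above 0. Without replicate 4 of that group they were 0.338 and 0.341, with 25 of 26 and 24 of 24 above 0. POLA2 was at 0.50 ± 0.10 (adjusted p = 0.0624), CENPM at 0.56 ± 0.13 (adjusted p = 0.101), TYMS at 0.38, CCNB2 at 0.37 and UBE2C at 0.38. For POLA2, CENPM and CCNB2 the chip arrays of the media did not overlap, where 1.71% of all genes were apart with the higher values in ZnO-control medium. Without replicate 4 of the chip TiO2-control group 1 replication and 1 mitosis member passed, where 1.42% of all genes did. Without chip ZnO replicate 1 a replication member passed, where 0.0759% of all genes did. Without replicate 4 of both the chip TiO2-control and the chip TiO2 groups 2 and 1 passed, where 1.73% of all genes did.

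Exposure to the nanomaterials for 6 h moved few of these genes past the threshold. On Transwell 0 members of either arm passed by limma after ZnO or after TiO2, and 0 did at an unadjusted p below 0.05, where 0 of all genes passed and 3.73% (ZnO) and 2.64% (TiO2) were below the unadjusted 0.05. The differences ran from -0.16 to 0.11 after ZnO in both arms together and from -0.31 to 0.23 after TiO2. The intervals limit the size of what could be missed. After ZnO on Transwell E2F2 was at -0.16 with a 95% interval from -0.45 to 0.13, and TOP2A at -0.14 with one from -0.43 to 0.14.

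In the chip after ZnO 1 replication member, POLA2, and 1 mitosis member, CENPM, were lower and 0 were higher, where 0.272% of all genes passed, 0.0357% lower and 0.237% higher. POLA2 read 5.52, 5.78, 5.93 and 5.76 after ZnO, below its 4 control arrays, a difference of -0.49 ± 0.10 (adjusted p = 0.0381). CENPM read 5.43, 5.67, 5.69 and 5.62 after ZnO, also below its controls, a difference of -0.61 ± 0.13 (adjusted p = 0.0393). Of all genes 1.47% had all exposed arrays below all control arrays. TYMS (-0.55, adjusted p = 0.0934) and CDC45 (-0.63, adjusted p = 0.112) did not pass. The replication median was -0.26, with 24 of 26 below 0 and 9 at an unadjusted p below 0.05, where 9.42% of all genes were. The mitosis median was -0.03, with 15 of 24 below 0 and 1 at an unadjusted p below 0.05. Without chip ZnO replicate 1 the medians were -0.11 and -0.01, with 19 of 26 and 15 of 24 below 0. Both calls were lost with array weights, with a replicate number in the fit, with the spread of the 2 groups alone, and without any of chip ZnO-control replicate 1, 2 or 3 or chip ZnO replicate 1, 2 or 4, and that of CENPM also without chip ZnO replicate 3. Over all settings the adjusted p of POLA2 ran from 0.0130 to 0.673 and that of CENPM from 0.0169 to 0.594. Without chip ZnO-control replicate 4, 3 replication members passed, where 144 of all genes did.

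In the chip after TiO2 0 members of either arm passed by limma, where 0 of all genes did, and 4 replication members and 1 mitosis member had an unadjusted p below 0.05, where 8.92% of all genes did. POLA1 was at -0.28 and CDC45 at -0.40, with the exposed arrays below all control arrays in both, as in 1.33% of all genes, and CENPM was at -0.30. The medians were -0.12 and -0.06, and without replicate 2 of the chip TiO2-control group -0.23 and -0.28, with 25 of 26 and 24 of 24 below 0 and 0 passed. Without replicate 4 of both groups they were -0.04 and 0.04. The response to each nanomaterial was also compared between chip and Transwell. For ZnO 0 and 0 members passed, where 0.00447% of all genes did, and 4 and 1 had an unadjusted p below 0.05, where 6.01% of all genes did, with POLA2 at -0.50 ± 0.15 (adjusted p = 0.563) and CENPM at -0.56 ± 0.19 (adjusted p = 0.736). For TiO2 0 and 0 passed, where 0 of all genes did, and 1 and 0 had an unadjusted p below 0.05, where 5.43% of all genes did. A fall of POLA2 or CENPM in the chip alone was therefore not shown.

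Chip and Transwell also differed after exposure, with other arrays than in the control media but with unequal doses in the medium. After TiO2 19 of 26 replication members were lower in the chip and 0 higher, with a median of -0.65, and of 24 mitosis members 3 were higher and 2 lower, with a median of 0.07. Of all genes 18.2% passed, with 10.2% lower and 7.92% higher. POLA2 had a difference of -1.11 ± 0.11 (adjusted p = 3.18e-08), TYMS of -0.97 ± 0.15 (adjusted p = 2.31e-05) and POLA1 of -0.87 ± 0.12 (adjusted p = 4.46e-06). POLA2 read 6.76, 6.79 and 6.66 on Transwell and 5.64, 5.59, 5.68 and 5.57 in the chip, with no overlap, where 14.9% of all genes were apart and lower. CENPM (-0.79) and MYBL2 (-0.70) were lower, and CDC20 (0.49), AURKA (0.42) and CCNB2 (0.41) were higher with adjusted p from 0.0420 to 0.0483. With single arrays left out the mitosis count fell to 3 or 2 in 17 cases, in each with 2 still lower, where 3073 to 4125 of all genes passed. None was higher in 3 of these cases, without Transwell TiO2 replicate 1 or 2 or chip TiO2 replicate 1, and 1 was higher in the 14 others, so that more were lower than higher. Without chip TiO2 replicate 4 the count was 4, with 2 higher and 2 lower, where 3891 of all genes passed.

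After ZnO 17 of 24 mitosis members were higher in the chip and 0 lower, with a median of 0.67, where 29.8% of all genes passed, 13.3% higher and 16.5% lower. NUSAP1 had a difference of 1.22 ± 0.13 (adjusted p = 3.37e-08), BUB1 of 1.28 ± 0.15 (adjusted p = 1.56e-07) and CDC20 of 1.28 ± 0.16 (adjusted p = 2.14e-07). NUSAP1 read 8.02, 7.89, 8.01 and 8.0 on Transwell and 8.97, 9.33, 9.21 and 9.29 in the chip. Of the replication members 4 were higher and 6 lower, with a median of -0.20. Without chip ZnO replicate 1 there were 4 higher and 3 lower, with a median of -0.04 and 26.9% of all genes passed, and 16 mitosis members were higher. CDT1 (0.95), TK1 (0.74), CCNE2 (0.66) and RRM2 (0.45) were higher, and MCM3 (-0.62), GINS2 (-0.56), PRIM1 (-0.56), POLA1 (-0.44), POLA2 (-0.41) and MCM6 (-0.38) were lower.

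Other genes of the same processes, from lists outside the 50, are given by counts in the order chip against Transwell in TiO2-control medium, in ZnO-control medium and the difference between them, all with every array. Of all genes 9.42% were higher and 13.5% lower in the first, 12.3% and 14.9% in the second, and 1.69% and 1.05% in the third, and a list's share near these is no result about the list. Of 39 other replication genes 1 was higher and 18 lower in the first, 8 and 5 in the second, and 7 and 1 in the third. POLD3, a subunit of the lagging-strand polymerase, was lower in both media (-0.94 and -0.61), as was the origin recognition subunit ORC2 (-0.37 and -0.68). RFC4, a subunit of the clamp loader, was at -0.06 in the first, where it did not pass, and higher by 1.31 in the second. Of 44 other mitosis genes 5 were higher and 8 lower, then 28 higher and 2 lower, then 6 higher and 0 lower. CKS2, a small CDK-binding protein, was higher in both media (1.87 and 1.23), as was the centrosome kinase NEK2 (0.81 and 1.26). ESPL1, the protease separase, was lower in both (-2.30 and -1.34), against the direction of most mitosis genes in ZnO-control medium.

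Of 12 G1 cyclins, kinases and MYC 2 were higher and 5 lower, then 4 and 2, then 2 and 0. SKP2, which marks CDK inhibitors for degradation, was lower in both media (-1.46 and -1.54), and cyclin E1, CCNE1, was higher in both (0.40 and 0.98). CCND3, a D-type cyclin, was higher in ZnO-control medium (0.88) and did not pass in the other (0.07). Of 21 CDK inhibitors, pocket proteins and DREAM subunits 3 were higher and 9 lower, then 7 and 5, then 4 and 0. E2F7, a repressor that is itself an E2F target, was lower in TiO2-control medium (-0.99) and higher in ZnO-control medium (0.80), a difference of 1.79 ± 0.24 (adjusted p = 6.85e-05). E2F5, a partner of pocket proteins, was lower in both (-0.81 and -1.10), and CCNG2, an atypical cyclin, was higher in ZnO-control medium (0.70). Of 15 genes of replication stress and repair 1 was higher and 6 lower, then 6 and 0, then 4 and 0. RMI2 of the BLM complex was lower in the first (-0.95), and the CDK1-inhibiting kinase WEE1 was higher in both (0.46 and 0.61). Of 27 replication-dependent histones 3 were higher and 6 lower, then 5 and 0, then 0 and 0, with 2 at an unadjusted p below 0.05 in the last, where 15.9% of all genes were. H2BC21 was higher in both (1.36 and 2.26), as was H2BC15 (0.62 and 1.13), and H1-4 was lower in the first (-0.99). Histone genes share near-identical copies, so single values are uncertain.

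Members with and without a motif match are set side by side as a description. In ZnO-control medium the 12 mitosis members with CHR letters had a median chip minus Transwell difference of 0.79 and the 6 without them one of 0.62. In TiO2-control medium the medians were 0.17 and 0.04. The 17 replication members with E2F letters had a median of -0.59 in TiO2-control medium and the 6 without them one of -0.39, and in ZnO-control medium the medians were -0.06 and 0.38. CDT1, whose stretch above holds a match, had the highest difference of the replication members in ZnO-control medium, and GINS2, which also holds one, the lowest.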

How the data were processed

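RNA of Caco-2 cells (100 ng for each of 31 arrays) was hybridised to Affymetrix whole-transcript arrays. The deposited values are log2 signals of 53617 probe sets that the authors made with RMA, per the submitters' processing notes; the version is not given in the sources used here. No raw intensities were used here. Of the probe sets 23871 named 1 gene, 1842 several and 27904 none, and the brightest was kept for each of 22395 genes, named through RefSeq where the symbol matched. RMA gives relative levels, so levels of different genes were not compared. R 4.3.3 and limma 3.58.1 (lmFit and eBayes) fitted 1 mean to each of 8 groups with 23 residual degrees of freedom, and Benjamini-Hochberg adjustment ran over all genes within a comparison. The procedure was tested on simulated data with the same spread in every group. Chip replicates spread more in the real arrays, which that test did not cover. The number of arrays limits the precision. The members and the other gene lists were chosen with earlier results of these data known. By rule, up to 5 members of each arm with the smallest p were named in a comparison among the control groups and up to 3 in any other, with role groups of up to 6 in full and 3 genes of each other list; members beyond this were named after their values were seen. A gene that this rule would name in the list of replication stress and repair is not reported here. The labels do not say whether equal replicate numbers share a culture or a run, and the main fit did not pair them. As alternatives the fit was repeated with weighted arrays, with a prior that follows intensity or resists outliers, and with the mean of a gene's probe sets, a filter on dim genes, the replicate number as a block, median centring, only the groups compared, and arrays left out.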

Additional observations from a re-analysis of the deposited data

Results flagged for a closer look

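Of 364 sets of 4 arrays of a group, 350 for single members and 14 for the arm means, 21 held 1 array far from the other 3, all of them for single members, where chance gives about 1 in 20. In chip TiO2-control replicate 2, BUB1 read 7.80 (the others 8.397 to 8.453), CDK1 8.499 (9.323 to 9.431) and GMNN 7.11 (7.66 to 7.725). In replicate 4 of that group CCNE2 read 6.87 (6.051 to 6.15). In chip ZnO replicate 1, GINS2 read 5.16 (6.082 to 6.174), PCNA 8.15 (9.234 to 9.346), TK1 8.58 (9.313 to 9.369) and CDT1 8.70 (8.097 to 8.168). Of these 4 replication members 3 were low and CDT1 was high on that array. In chip ZnO replicate 2, RRM2 read 8.40 (8.274 to 8.281) and GMNN 7.06 (7.264 to 7.293). With TiO2 in the chip, replicate 1 read 9.39 for CCNA2 (8.901 to 8.973) and 7.93 for CCNB2 (7.425 to 7.475), replicate 2 read 6.53 for PRIM1 (6.745 to 6.773), and replicate 4 read 8.498 for TYMS (8.009 to 8.089).

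On Transwell in TiO2-control medium, replicate 1 read 9.57 for CCNA2 (9.193 to 9.242), 7.48 for CDC6 (7.128 to 7.17) and 7.25 for GINS2 (6.694 to 6.774), and replicate 2 read 8.10 for CDT1 (8.334 to 8.358). On Transwell with ZnO, GINS1 read 7.80 in replicate 1 (7.681 to 7.7), NUSAP1 7.89 in replicate 2 (8.0 to 8.015) and TYMS 8.47 in replicate 3 (8.534 to 8.547).

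The signed chip minus Transwell difference was higher in ZnO-control than in TiO2-control medium, by limma's test of the difference itself, for 16 members. A higher signed value is not always a wider gap between the systems. The differences on the log2 scale were 1.15 for CDT1, 1.07 for MCM5, 1.04 for TK1, 0.99 for POLA2, 0.93 for CDC45, 0.89 for PLK1, 0.87 for MYBL2, 0.82 for RRM2, 0.81 for CENPM, 0.80 for each of TYMS, MCM4, AURKB and BUB1, 0.79 for NUSAP1 and FOXM1, and 0.77 for CCNA2.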

How the results depend on the processing

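Of the 14 counts of members that passed and were above 0, 5 stayed within 1.5 times under every alternative; counts of 0 in comparisons where almost no gene passed say nothing about stability. The balance of directions turned for mitosis members between systems in TiO2-control medium and with TiO2, and for replication members with ZnO. Of 130 member differences that passed, 52 lost the call under at least 1 alternative, and 43 that had not passed did so under at least 1. Counts below name the replication and the mitosis arm. The share of all genes that passed under each alternative is not given beside them, so they describe stability only. The filter on dim genes also lowered the number of genes tested. With an intensity trend 2 replication members passed for ZnO in the chip. With array weights 14 replication members passed between the media on Transwell and 1 in the chip, and 0 and 0 for ZnO in the chip. With the filter on dim genes 8 mitosis members passed between systems in TiO2-control medium, 11 replication members between media on Transwell, 1 and 1 between media in the chip, and 2 replication members for ZnO in the chip. With median centring 7 mitosis members passed between systems in TiO2-control medium (6 higher and 1 lower), 5 for the difference between media and 5 between media on Transwell; the median of all genes moved by at most 0.08. With only the groups compared, 10 and 2 passed between systems in TiO2-control medium, 3 mitosis members for the difference between media, 2 mitosis members between systems with TiO2, and 0 and 0 for ZnO in the chip. Without replicate 4 of both chip TiO2-control and chip TiO2, 2 and 1 passed between media in the chip, 2 replication members for ZnO in the chip and 3 mitosis members between systems with TiO2. Without chip TiO2-control replicate 2 and chip ZnO replicate 1 together, a choice made after seeing the data, 12 mitosis members passed between systems in TiO2-control medium, 4 for the difference between media, 8 between systems with TiO2, 12 replication members between media on Transwell, and 0 and 0 for ZnO in the chip. The causes were not tested.

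With the replicate number as a block, 17 and 4 passed between systems in TiO2-control medium, 5 and 18 in ZnO-control medium, 7 and 8 for the difference between media, 7 and 7 between media on Transwell, 3 mitosis members between systems with TiO2, and 0 and 0 for ZnO in the chip. Deviations of arrays with the same number correlated from -0.232 to 0.175, so the numbers were not taken as a pairing.

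With single arrays left out, the replication counts ran from 9 to 19 between systems in TiO2-control medium, 4 to 6 in ZnO-control medium, 14 to 20 with TiO2, 7 to 11 with ZnO, 5 to 12 for the difference between media, 5 to 10 between media on Transwell, 0 to 1 in the chip and 0 to 3 for ZnO in the chip. The mitosis counts ran in the same order from 2 to 12, 16 to 20, 2 to 6, 16 to 18, 4 to 9, 2 to 9, 0 to 1 and 0 to 1. For the other comparisons they were 0.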
